A study of Homo sapiens with 10 samples.

Results

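The genes described here are the autophagy machinery, 40 genes chosen by name and found by their symbol among the 16734 genes of a deposited expression table. They were followed in MIA PaCa-2, an established human pancreatic ductal adenocarcinoma cell line. One group of 5 libraries came from cells exposed to hydroxyprogesterone caproate (HPC), a synthetic progestin, at 10 µM for 24 h, and the other 5 came from cells given the same volume of its solvent, DMSO, for 24 h. Both groups were the same unmodified line, and each library was labelled a biological replicate with no culture date or batch. The question is which steps of autophagy had more or less transcript with HPC. Poly(A) RNA was sequenced, so protein, lipidation and autophagic flux were not measured.

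Autophagy encloses cytoplasm in a double membrane, the autophagosome, and delivers it to the lysosome for breakdown. A kinase complex starts the process, a lipid kinase complex marks the site with phosphatidylinositol 3-phosphate, and the membrane grows on lipid drawn from the endoplasmic reticulum and from vesicles. Ubiquitin-like conjugation enzymes attach proteins of the ATG8 family to this membrane, receptors tie cargo to the ATG8 proteins, and SNARE proteins fuse the closed autophagosome with the lysosome.

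Across the series, recovered reads summed to between 65851927 and 74477678 per HPC library and between 71603127 and 82219086 per DMSO library. Genes encoded by mitochondria took 14.8% ± 0.717 of the FPKM in HPC and 22.6% ± 0.704 in DMSO (SD, n = 5 each), and FPKM is scaled to library size. For that reason directions are also given below after rescaling to the non-mitochondrial sum, which put the median log2 fold change of all tested genes at -0.18 in place of -0.014. Of the markers checked, KRT8, KRT18, KRT19, SOX9 and VIM were expressed, at levels that differed between the groups. KRT8 averaged 57.7 FPKM in HPC and 51.8 FPKM in DMSO, and KRT18 150 FPKM in HPC and 114 FPKM in DMSO. KRT19 averaged 10.1 FPKM in HPC and 24.0 FPKM in DMSO, SOX9 8.72 and 24.7 FPKM, and VIM 333 and 695 FPKM. EPCAM and CDH1 averaged at most 0.00247 FPKM in either group. KRT7 averaged 0.0352 FPKM in HPC and 0.226 FPKM in DMSO, and MUC1 0.0649 FPKM in HPC and 0.808 FPKM in DMSO. Markers of other cells were mixed. PTPRC of leukocytes, PECAM1 of endothelium and DCN and LUM of fibroblasts averaged at most 0.0026 FPKM in either group. COL1A1 of fibroblasts averaged 0.00455 FPKM in HPC and 0.0459 FPKM in DMSO, and CPA1 of acinar cells 0 and 0.0111 FPKM. CD3E, PRSS1, CELA3A and AMY2A were not analysed here. Of the same lists, CD68 of leukocytes averaged 9.77 ± 1.15 FPKM in HPC and 2.75 ± 0.358 FPKM in DMSO (SD, n = 5 each). COL1A2 of fibroblasts averaged 0.809 ± 0.101 FPKM in HPC and 25.8 ± 0.866 FPKM in DMSO, and CDH5 of endothelium 0.0124 ± 0.00659 FPKM in HPC and 1.42 ± 0.0422 FPKM in DMSO. Their part in the results was not tested.

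All 40 members passed the filter on low values, at least 1 FPKM in at least 5 libraries, and TECPR1 passed it through the DMSO libraries alone. With HPC 24 members rose and 12 fell, TECPR1 counted among the 12 (limma, Benjamini-Hochberg adjusted p under 0.05 over 9150 genes). That is 60% and 30% of the members, beside 42.9% and 44.8% of all tested genes. Both directions together took 90% of the members and 87.7% of all tested genes, so passing this test is not particular to autophagy genes. A change of at least 1.5-fold was found for 8 members that rose (20%, against 16.9% of all tested genes) and for 2 that fell (5%, against 20.3%), beside 37.2% of all tested genes in either direction. Rises of at least 2-fold were found for 6 members (15%, against 7.54%) and of at least 4-fold for 3 (7.5%, against 1.99%). Only the 1.5-fold size was planned, and the larger sizes were counted for rises only. The largest fall of a member was that of TECPR1 (log2 fold change -0.98). The values of the groups did not overlap for 30 members, TECPR1 among them, or 75.0%, against 79.6% of all tested genes. The median log2 fold change of the members was 0.15, beside -0.014 over all tested genes. After rescaling to the non-mitochondrial sum it was -0.015 beside -0.18. With that sum 17 members were higher and 16 lower, beside 2957 higher and 5015 lower of the 9150 tested genes. With voom on recovered reads and TMM factors the median of the members was 0.17 beside -0.00081. Then 24 members were higher and 12 lower, beside 4005 and 4034 of all tested genes. In bulk RNA a change in the make-up of the cells and a change of RNA per cell cannot be told apart.

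The members took 0.262% ± 0.00438 of all FPKM in HPC and 0.167% ± 0.00113 in DMSO (SD, n = 5 each). That share leans on genes with high levels, such as MAP1LC3B, which averaged 86.2 FPKM in HPC and 15.6 FPKM in DMSO. It does not describe the typical member, whose median log2 fold change was 0.15. A few genes stood far from the rest, as the plot of fold changes by step shows. WIPI1, MAP1LC3B, TMEM41B and ATG101 ranked 61, 114, 148 and 232 among the rises of the 9150 tested genes, and GABARAPL1 and TAX1BP1 ranked 552 and 546. At the 1.5-fold size ATG4D was just inside (1.54-fold) and ATG12 just outside (1.49-fold). After rescaling to the non-mitochondrial sum, ATG4D (log2 fold change 0.46) and CALCOCO2 (0.49) were under that size, while AMBRA1 (-0.61) and GABARAP (-0.61) were past it.

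**Figure D1:**
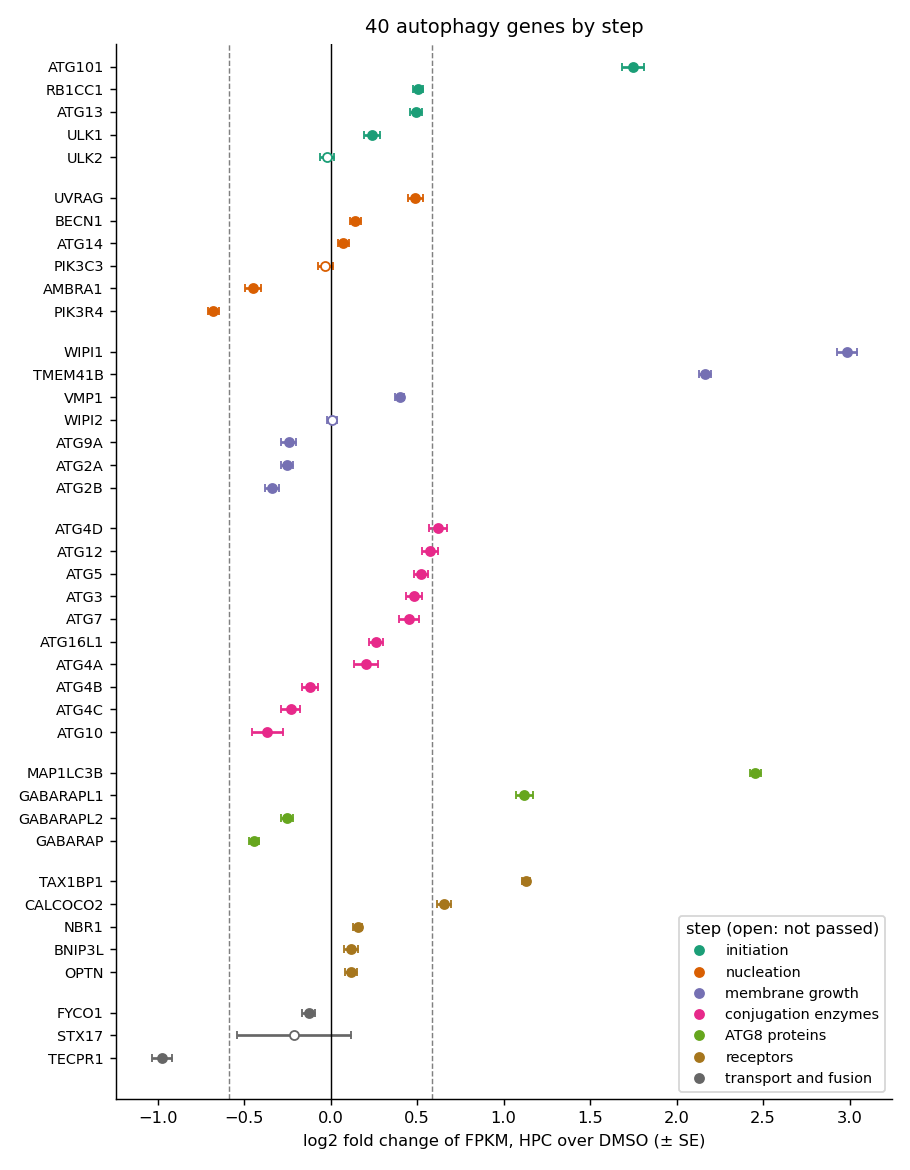
The log2 fold change of FPKM, HPC over DMSO, with its standard error, is plotted for the 40 members, grouped by step. Dashed lines mark 1.5-fold in either direction and open symbols mark the 4 genes that did not pass the test. WIPI1 at 2.98 and MAP1LC3B at 2.46 lie farthest to the right, and TECPR1 at -0.98 lies farthest to the left.

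**Figure D2:**
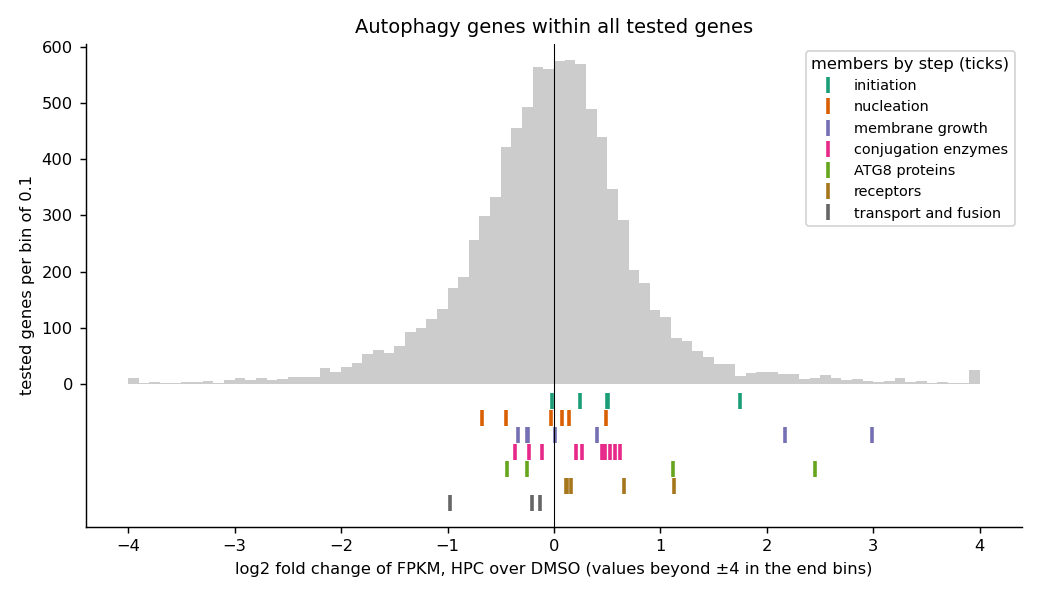
The grey histogram counts the 9150 tested genes by log2 fold change of FPKM, HPC over DMSO, in bins of 0.1, with values beyond 4 in either direction placed in the end bins. Coloured ticks below it mark the 40 members by step. Most ticks lie within the bulk of the histogram, and those of WIPI1, MAP1LC3B, TMEM41B and ATG101 lie in its right tail.

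Promoter sequences were taken from RefSeq (GRCh38.p14, the build of all sequences printed below), which held windows of 250 bases before to 50 bases after the start for 35 of the 40 members. They were searched on both strands for 5 motifs, of which none contains another, and a match or its absence describes only the letters in the window. The start is the RefSeq one and can lie inside the gene bounds given here, which are those of GENCODE. TTGCATCA is an element bound by ATF4 with C/EBP proteins. It was in none of the 35 windows and in 0.866% of 35116 windows of all genes. CACGTG, the E-box at the core of the element bound by TFEB, was in 2 of the 35, ATG3 and ATG14, and in 7.26% of all windows. The other motifs were chosen after the sequences and the fold changes had been seen. TGACGTCA, the full cyclic AMP response element, was in GABARAPL1 and in 1.85% of all windows, and TGACGCAA, which joins the start of that element to the end of a C/EBP site, was in ATG7 and TAX1BP1 and in 0.513% of all windows. GGGCGG, the GC box, was in 25 of the 35 windows, or 71.4%, and in 45.0% of all windows. For every motif members were counted once each, while all windows were counted singly and not limited to genes expressed here. These shares are therefore of unlike sets, and enrichment was not tested. The 25 included genes that rose, such as WIPI1, and genes that fell, such as GABARAP.

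The initiation complex pairs the kinases ULK1 and ULK2 with the scaffolds ATG13, RB1CC1 and ATG101, and 4 of its 5 genes rose and none fell. That is 80% higher and 0% lower, beside 42.9% and 44.8% of all tested genes. In either direction 80.0% of the step passed the test, beside 87.7% of all tested genes. ATG101 (chromosome 12, 52069246 to 52077494, plus strand), whose protein stabilises ATG13, was by far the most changed of them. It had 8.91, 8.74, 7.87, 8.18 and 7.89 FPKM in HPC libraries 1 to 5, against 2.54, 2.68, 2.55, 2.20 and 2.12 FPKM in DMSO libraries 1 to 5. Its HPC values all lay above its DMSO values (log2 fold change 1.75 ± 0.064 SE, adjusted p = 1.72e-11), 3.35-fold on the scale of log2(FPKM + 0.1). An antisense transcript, AC025259.1, shares 19.2% of its exonic bases, and the sources do not say whether counting used strand. The 250 bases before its RefSeq start (chr12:52069728-52069977, plus strand) are shown because ATG101 changed most in this step, with GC boxes on either strand in capitals.
ATG101: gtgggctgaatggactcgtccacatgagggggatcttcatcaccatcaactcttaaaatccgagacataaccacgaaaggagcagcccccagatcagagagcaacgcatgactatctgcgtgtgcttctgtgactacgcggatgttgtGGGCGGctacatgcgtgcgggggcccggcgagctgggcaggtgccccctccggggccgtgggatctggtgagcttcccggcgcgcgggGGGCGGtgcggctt

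RB1CC1, the large scaffold also called FIP200, had 12.2, 12.4, 11.6, 12.5 and 12.3 FPKM in HPC libraries 1 to 5, against 8.47, 8.46, 8.49, 8.92 and 8.52 FPKM in DMSO libraries 1 to 5. The groups did not overlap (log2 fold change 0.51 ± 0.028 SE, adjusted p = 1.07e-09), and within DMSO, replicate 4 stood a little above the others. ATG13, the regulatory subunit that binds the kinases, averaged 2.99 ± 0.0992 FPKM in HPC and 2.10 ± 0.0452 FPKM in DMSO (SD, n = 5 each), and its groups did not overlap either (log2 fold change 0.49 ± 0.034 SE, adjusted p = 9.48e-09). ULK1 had 2.52, 2.64, 2.46, 2.67 and 2.62 FPKM in HPC libraries 1 to 5, against 2.02, 2.19, 2.36, 2.25 and 2.05 FPKM in DMSO libraries 1 to 5. The ULK1 groups were close to each other without overlapping (log2 fold change 0.24 ± 0.046 SE, adjusted p = 0.000261), and after rescaling to the non-mitochondrial sum the difference was 0.079 (adjusted p = 0.133). ULK2 averaged 4.67 ± 0.23 FPKM in HPC and 4.74 ± 0.189 FPKM in DMSO (SD, n = 5 each), with overlapping groups (log2 fold change -0.022 ± 0.040 SE, adjusted p = 0.614), and -0.19 after that rescaling (adjusted p = 0.000951). The ratio of ULK1 to ULK2 within a library does not depend on scaling between libraries, and it was 0.554 ± 0.0119 in HPC and 0.459 ± 0.0236 in DMSO (SD, n = 5 each), with no overlap.

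The lipid kinase complex that nucleates the membrane changed in mixed directions. Of its 6 genes 3 rose and 2 fell, or 50% and 33.3%, beside 42.9% and 44.8% of all tested genes, while PIK3C3 did not pass. The genes of its shared core did not move together. PIK3R4 (chromosome 3, 130678935 to 130746829, minus strand), the regulatory subunit also called VPS15, fell, with 4.97, 4.68, 4.71, 5.02 and 4.50 FPKM in HPC libraries 1 to 5, against 7.53, 7.46, 7.94, 7.78 and 7.76 FPKM in DMSO libraries 1 to 5. All 5 HPC libraries lay below the DMSO libraries (log2 fold change -0.68 ± 0.034 SE, adjusted p = 4.09e-10). Its catalytic partner PIK3C3, also called VPS34, had 1.80, 1.87, 1.67, 1.90 and 1.76 FPKM in HPC libraries 1 to 5, against 1.96, 1.85, 1.79, 1.78 and 1.84 FPKM in DMSO libraries 1 to 5. These groups overlapped and the difference did not pass (log2 fold change -0.032 ± 0.044 SE, adjusted p = 0.495); its sign turned with quantile normalization (0.033), and after rescaling to the non-mitochondrial sum it was -0.19 (adjusted p = 0.00099). BECN1, the scaffold Beclin 1, had 3.69, 3.75, 3.81, 3.78 and 3.78 FPKM in HPC libraries 1 to 5, against 3.48, 3.25, 3.37, 3.43 and 3.46 FPKM in DMSO libraries 1 to 5. The BECN1 groups were separated by little (log2 fold change 0.14 ± 0.029 SE, adjusted p = 0.000434), and the sign turned to -0.020 with the non-mitochondrial sum (adjusted p = 0.556). BECN1 shares 12.4% of its exonic bases with CNTD1 on the opposite strand, which averaged 0.0751 FPKM in HPC and 0.0386 FPKM in DMSO, and 4.68% with PSME3 on the opposite strand, which averaged 8.81 FPKM in HPC and 8.17 FPKM in DMSO.

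The subunits that direct the complex also differed. UVRAG, the subunit of the endosomal form, averaged 1.90 ± 0.0793 FPKM in HPC and 1.32 ± 0.0696 FPKM in DMSO (SD, n = 5 each; log2 fold change 0.49 ± 0.045 SE, adjusted p = 2.28e-07). ATG14, the subunit of the autophagy form, averaged 4.64 ± 0.158 FPKM in HPC and 4.41 ± 0.118 FPKM in DMSO (SD, n = 5 each), with overlapping groups (log2 fold change 0.072 ± 0.032 SE, adjusted p = 0.0483), and the sign turned to -0.092 with the non-mitochondrial sum. It also lost its call when any library other than HPC 2, HPC 4 or DMSO 4 was left out, with adjusted p between 0.071 and 0.116. The ratio of ATG14 to UVRAG was 2.45 ± 0.163 in HPC and 3.34 ± 0.228 in DMSO, and the groups did not overlap. AMBRA1, a Beclin 1 partner that also acts in ubiquitin ligases, fell (log2 fold change -0.45 ± 0.046 SE, adjusted p = 5.98e-07). NRBF2, a further subunit of the autophagy form outside the 40 genes, had 26.3, 25.3, 24.7, 24.6 and 23.5 FPKM in HPC libraries 1 to 5, against 8.76, 8.77, 8.64, 7.93 and 8.33 FPKM in DMSO libraries 1 to 5. Every HPC library was above every DMSO library (log2 fold change 1.54 ± 0.036 SE, adjusted p = 2.15e-13), and processed pseudogenes up to 97.6% identical to it were not in the table. The last 60 bases before the start of ATG14 (chr14:55411831-55411890, minus strand) are shown for their E-box, in capitals.
ATG14: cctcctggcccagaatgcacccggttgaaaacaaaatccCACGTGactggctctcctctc

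**Figure D3:**
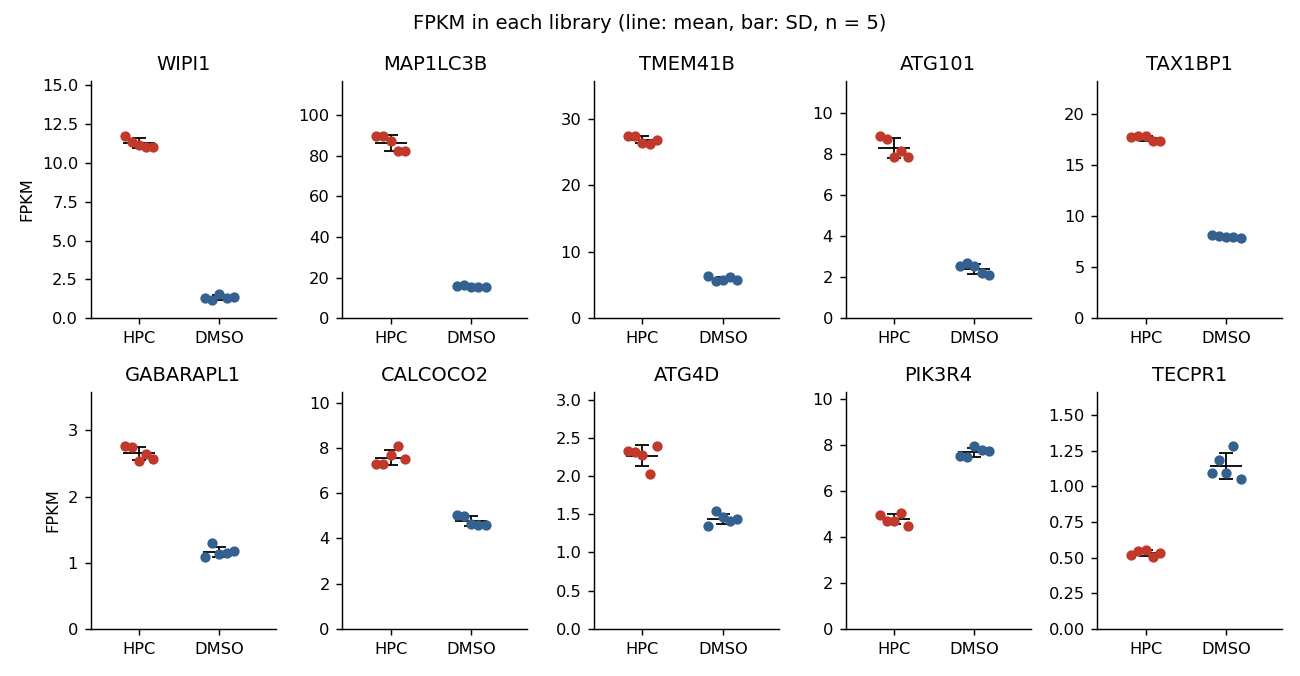
FPKM in each library is plotted for the 10 members that changed at least 1.5-fold without overlap between the groups, with HPC on the left and DMSO on the right of each panel. The horizontal line is the mean and the bar the SD of 5 libraries, and every axis starts at 0. In the first 8 panels all HPC points lie above all DMSO points, and in the panels of PIK3R4 and TECPR1 they lie below. TECPR1 passed the filter on low values through the DMSO libraries alone, so its panel is given without a test.

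In membrane growth the changes of largest size were in WIPI1 and TMEM41B, while the other 5 genes stayed under 1.5-fold. WIPI1 (chromosome 17, 68420948 to 68457513, minus strand) encodes a protein that binds phosphatidylinositol 3-phosphate on the growing membrane. It had 11.8, 11.4, 11.2, 11.0 and 11.1 FPKM in HPC libraries 1 to 5, against 1.32, 1.16, 1.56, 1.29 and 1.38 FPKM in DMSO libraries 1 to 5. The lowest HPC library was several times above the highest DMSO library (log2 fold change 2.98 ± 0.059 SE, adjusted p = 5.61e-14), 7.92-fold on the scale of log2(FPKM + 0.1), and the mean was 11.3 ± 0.305 FPKM in HPC and 1.34 ± 0.147 FPKM in DMSO (SD, n = 5 each). ARSG on the opposite strand shares 24.3% of the exonic bases of WIPI1, and it averaged 0.570 FPKM in HPC and 0.269 FPKM in DMSO, below WIPI1 on this per-length scale in each group. WIPI2, the relative that recruits ATG16L1, did not pass the test. It averaged 6.44 ± 0.144 FPKM in HPC and 6.41 ± 0.150 FPKM in DMSO (SD, n = 5 each; log2 fold change 0.0081 ± 0.027 SE, adjusted p = 0.783), and its sign turned with the TPM rescaling (-0.020), quantile normalization (-0.0010) and the non-mitochondrial sum (-0.16, adjusted p = 0.000176). The ratio of WIPI1 to WIPI2 was 1.75 ± 0.0771 in HPC and 0.209 ± 0.0208 in DMSO (SD, n = 5 each), with no overlap. In the 2 further WIPI relatives outside the 40 genes, WDR45, also called WIPI4, had 3.44, 3.35, 3.12, 3.09 and 3.13 FPKM in HPC libraries 1 to 5, against 1.38, 1.53, 1.63, 1.50 and 1.50 FPKM in DMSO libraries 1 to 5. WDR45 rose without overlap (log2 fold change 1.05 ± 0.047 SE, adjusted p = 1.19e-10), though it shares 13.9% of its exonic bases with PRAF2 on the same strand. WDR45B, also called WIPI3, rose by less (log2 fold change 0.43).

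TMEM41B (chromosome 11, 9280654 to 9314780, minus strand) and VMP1 are lipid scramblases of the endoplasmic reticulum that act together in autophagosome formation. TMEM41B had 27.5, 27.5, 26.4, 26.3 and 26.9 FPKM in HPC libraries 1 to 5, against 6.38, 5.60, 5.79, 6.14 and 5.69 FPKM in DMSO libraries 1 to 5. The HPC libraries were close to each other and far above the DMSO libraries (log2 fold change 2.17 ± 0.036 SE, adjusted p = 1.14e-14), 4.49-fold. VMP1 averaged 16.9 ± 0.470 FPKM in HPC and 12.8 ± 0.263 FPKM in DMSO (SD, n = 5 each), a smaller rise without overlap (log2 fold change 0.40 ± 0.026 SE, adjusted p = 5.59e-09). Of the other genes of this step, ATG9A, ATG2A and ATG2B fell by less than 1.5-fold. ATG9A, a scramblase of vesicles, fell with HPC (log2 fold change -0.24 ± 0.043 SE, adjusted p = 0.000147), though it shares 38.8% of its exonic bases with AC068946.2 on the same strand, so that its level is uncertain. ATG2A and ATG2B, the bridges that transfer lipid from the endoplasmic reticulum, had log2 fold changes of -0.25 and -0.34 (adjusted p = 1.57e-05 and 4.54e-06). Their ratio, ATG2A to ATG2B, was 0.985 ± 0.065 in HPC and 0.926 ± 0.063 in DMSO, and the groups overlapped. The 250 bases before the starts of WIPI1 (chr17:68457497-68457746, minus strand) and TMEM41B (chr11:9314594-9314843, minus strand), shown because these genes rose most in this step, hold 9 and 5 GC boxes, in capitals on either strand.
WIPI1: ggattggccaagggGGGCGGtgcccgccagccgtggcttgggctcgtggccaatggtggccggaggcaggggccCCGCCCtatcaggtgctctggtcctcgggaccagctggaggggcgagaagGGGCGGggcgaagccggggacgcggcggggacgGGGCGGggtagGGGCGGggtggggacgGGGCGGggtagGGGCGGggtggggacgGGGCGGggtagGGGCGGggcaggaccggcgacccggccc
TMEM41B: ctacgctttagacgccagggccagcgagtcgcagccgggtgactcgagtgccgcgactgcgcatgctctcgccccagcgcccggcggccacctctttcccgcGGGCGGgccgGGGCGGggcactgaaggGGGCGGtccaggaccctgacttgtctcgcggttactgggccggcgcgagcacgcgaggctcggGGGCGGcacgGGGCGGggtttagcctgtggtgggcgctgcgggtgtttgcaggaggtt

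In the step that conjugates ATG12 to ATG5 and ATG8 proteins to lipid, 7 of 10 genes rose and 3 fell. That is 70% and 30%, beside 42.9% and 44.8% of all tested genes, with a median log2 fold change of 0.36 beside -0.014. Most of these changes were small, and 1 gene was past 1.5-fold. ATG7, the E1-like enzyme of both conjugations, had 1.81, 1.59, 1.71, 1.83 and 1.64 FPKM in HPC libraries 1 to 5, against 1.24, 1.20, 1.07, 1.34 and 1.29 FPKM in DMSO libraries 1 to 5. Its groups did not overlap (log2 fold change 0.45 ± 0.060 SE, adjusted p = 8.84e-06), and VGLL4 on the opposite strand shares 18.1% of its exonic bases, with 1.84 FPKM in HPC and 2.39 FPKM in DMSO. ATG5, the acceptor of ATG12, had 3.45, 3.54, 3.16, 3.20 and 3.32 FPKM in HPC libraries 1 to 5, against 2.33, 2.16, 2.32, 2.27 and 2.35 FPKM in DMSO libraries 1 to 5. It was higher in every HPC library (log2 fold change 0.52 ± 0.039 SE, adjusted p = 2.61e-08). ATG16L1, which brings ATG12 and ATG5 to the membrane, had 1.79, 1.60, 1.68, 1.62 and 1.60 FPKM in HPC libraries 1 to 5, against 1.31, 1.34, 1.40, 1.40 and 1.37 FPKM in DMSO libraries 1 to 5. The difference was small and the groups did not overlap (log2 fold change 0.26 ± 0.042 SE, adjusted p = 5.81e-05). ATG12 itself averaged 6.02 ± 0.310 FPKM in HPC and 4.00 ± 0.237 FPKM in DMSO (SD, n = 5 each; log2 fold change 0.58 ± 0.046 SE, adjusted p = 4.96e-08), and ATG3, the E2-like enzyme for ATG8 proteins, averaged 5.24 ± 0.274 FPKM in HPC and 3.73 ± 0.189 FPKM in DMSO (SD, n = 5 each; log2 fold change 0.48 ± 0.044 SE, adjusted p = 1.84e-07). ATG10, the E2-like enzyme for ATG12, fell instead (log2 fold change -0.37 ± 0.090 SE, adjusted p = 0.0018), with overlapping groups. It averaged 1.05 FPKM in HPC and 1.39 FPKM in DMSO. RPS23 on the opposite strand shares 6.86% of its exonic bases and averaged 77.7 FPKM in HPC and 74.6 FPKM in DMSO. The level and direction of ATG10 are therefore uncertain. The last 60 bases before the start of ATG3 (chr3:112561963-112562022, minus strand) are shown for their E-box, in capitals.
ATG3: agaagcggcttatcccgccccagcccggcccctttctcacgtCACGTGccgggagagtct

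The ATG4 proteases, which trim ATG8 proteins before conjugation and release them from lipid afterwards, split in direction. ATG4D (chromosome 19, 10543895 to 10553418, plus strand) had 2.33, 2.31, 2.27, 2.03 and 2.39 FPKM in HPC libraries 1 to 5, against 1.34, 1.54, 1.47, 1.41 and 1.44 FPKM in DMSO libraries 1 to 5. Its groups did not overlap (log2 fold change 0.62 ± 0.049 SE, adjusted p = 4.68e-08), and KRI1 on the opposite strand shares 15.0% of its exonic bases. ATG4A rose by 0.20 on the log2 scale (adjusted p = 0.0132) with overlapping groups, and after rescaling to the non-mitochondrial sum the difference was 0.048 (adjusted p = 0.515). ATG4B, regarded as the most active of the family, averaged 1.80 ± 0.0827 FPKM in HPC and 1.96 ± 0.108 FPKM in DMSO (SD, n = 5 each), with overlapping groups (log2 fold change -0.12 ± 0.046 SE, adjusted p = 0.0294). This call was lost without HPC replicate 1, HPC replicate 4, DMSO replicate 1 or DMSO replicate 3 (adjusted p from 0.0616 to 0.0809) and with quantile normalization (adjusted p = 0.231). ATG4C fell (log2 fold change -0.23 ± 0.056 SE, adjusted p = 0.00163).

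The 4 ATG8 genes among the members moved apart, with MAP1LC3B and GABARAPL1 higher and GABARAP and GABARAPL2 lower. ATG8 proteins coat the autophagosome and bind the receptors of its cargo. MAP1LC3B (chromosome 16, 87383995 to 87404779, plus strand) encodes LC3B, the usual marker protein of autophagosomes. It had 89.6, 89.8, 87.2, 82.4 and 82.1 FPKM in HPC libraries 1 to 5, against 15.9, 16.3, 15.2, 15.4 and 15.4 FPKM in DMSO libraries 1 to 5. Both groups were tight and far apart (log2 fold change 2.46 ± 0.032 SE, adjusted p = 2.21e-15), 5.48-fold on the scale of log2(FPKM + 0.1), with means of 86.2 ± 3.77 FPKM in HPC and 15.6 ± 0.455 FPKM in DMSO (SD, n = 5 each). GABARAPL1 (chromosome 12, 10212458 to 10223130, plus strand) was low in every library, with 2.76, 2.75, 2.54, 2.64 and 2.57 FPKM in HPC libraries 1 to 5, against 1.08, 1.29, 1.14, 1.15 and 1.18 FPKM in DMSO libraries 1 to 5. Its HPC values all lay above its DMSO values (log2 fold change 1.12 ± 0.047 SE, adjusted p = 6.47e-11).

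GABARAP had 19.4, 19.8, 20.3, 20.9 and 19.9 FPKM in HPC libraries 1 to 5, against 26.5, 28.2, 27.3, 27.8 and 26.6 FPKM in DMSO libraries 1 to 5. It was lower in every HPC library (log2 fold change -0.44 ± 0.027 SE, adjusted p = 2.61e-09), and AC120057.2 on the same strand shares 30.5% of its exonic bases and AC120057.3 on the opposite strand 25.2%, so its level is uncertain. GABARAPL2 had 7.74, 7.83, 8.18, 7.47 and 8.13 FPKM in HPC libraries 1 to 5, against 9.57, 8.94, 9.48, 9.76 and 9.21 FPKM in DMSO libraries 1 to 5. The groups did not overlap (log2 fold change -0.25 ± 0.033 SE, adjusted p = 7.85e-06). Each of these 4 directions was the same under every scaling tried.

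The make-up of the 4 genes differed between the groups, as the plot of ATG8 genes by library shows. Their summed level was 117 ± 3.53 FPKM in HPC and 53.5 ± 0.932 FPKM in DMSO (SD, n = 5 each). MAP1LC3B made up 73.8% ± 1.04 of that sum in HPC and 29.2% ± 0.692 in DMSO, and GABARAP made up 17.2% ± 0.878 in HPC and 51.0% ± 0.705 in DMSO. GABARAPL2 made up 6.74% ± 0.318 in HPC and 17.6% ± 0.718 in DMSO. GABARAPL1 took 2.27% ± 0.0717 in HPC and 2.18% ± 0.123 in DMSO, and its shares overlapped.

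**Figure D4:**
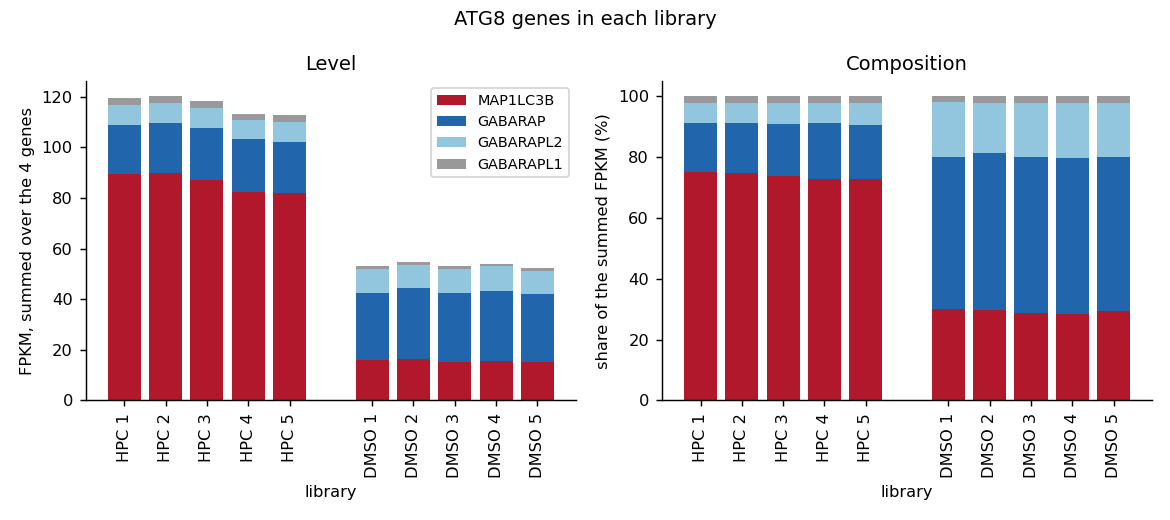
Stacked bars show the FPKM of MAP1LC3B, GABARAP, GABARAPL2 and GABARAPL1 in each library on the left, and the share of each gene in their sum, in percent, on the right. HPC libraries 1 to 5 stand left of DMSO libraries 1 to 5. MAP1LC3B takes between 72.7% and 74.9% of the sum in HPC libraries and between 28.5% and 30.1% in DMSO libraries.

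Outside the 40 genes, MAP1LC3A of the same family rose as well, and MAP1LC3B2 was higher. MAP1LC3A, which encodes LC3A, had 13.9, 13.4, 12.6, 12.0 and 12.5 FPKM in HPC libraries 1 to 5, against 4.17, 4.12, 4.44, 4.29 and 4.27 FPKM in DMSO libraries 1 to 5. No HPC value overlapped the DMSO values (log2 fold change 1.57 ± 0.039 SE, adjusted p = 3.73e-13). MAP1LC3B2 had 2.25, 1.94, 1.83, 1.72 and 2.16 FPKM in HPC libraries 1 to 5, against 0.415, 0.370, 0.325, 0.320 and 0.320 FPKM in DMSO libraries 1 to 5, and it passed the filter through the HPC libraries alone. Since the filter needed its high values, its difference is given without a test (log2 fold change 2.21 ± 0.082 SE), and with 1 FPKM added in place of 0.1 the log2 fold change was 1.14. Its transcript is 97.3% identical to MAP1LC3B over 601 bases, so reads can be split between both genes and its level is uncertain. MAP1LC3C was not tested, with a mean of 0 FPKM in HPC and 0.00944 FPKM in DMSO. The 250 bases before the RefSeq start of MAP1LC3B (chr16:87392086-87392335, plus strand), which lies inside the GENCODE bounds given above, are shown with their GC boxes in capitals, and the last 60 bases before the start of GABARAPL1 (chr12:10212817-10212876, plus strand) with their cyclic AMP response element in capitals, because these are the ATG8 members that rose.
MAP1LC3B: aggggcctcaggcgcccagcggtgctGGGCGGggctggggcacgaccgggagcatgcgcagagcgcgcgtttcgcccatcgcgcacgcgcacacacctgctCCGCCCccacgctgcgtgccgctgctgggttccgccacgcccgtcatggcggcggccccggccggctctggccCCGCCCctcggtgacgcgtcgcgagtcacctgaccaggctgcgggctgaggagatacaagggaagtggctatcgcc
GABARAPL1: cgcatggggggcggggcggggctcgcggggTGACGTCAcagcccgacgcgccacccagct

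All 5 receptor genes among the members passed the test upward, beside 42.9% of all tested genes, and TAX1BP1 and CALCOCO2 were past 1.5-fold. That count depended on the scaling. With the non-mitochondrial sum NBR1, OPTN and BNIP3L turned sign and CALCOCO2 was under 1.5-fold. With voom on recovered reads and TMM factors all 5 kept their direction and call. These proteins bind ubiquitin on the cargo, or sit in its membrane as BNIP3L does, and hold it to ATG8 proteins. TAX1BP1 (chromosome 7, 27739331 to 27844564, plus strand), a receptor for aggregates and bacteria, had 17.7, 17.8, 17.8, 17.3 and 17.3 FPKM in HPC libraries 1 to 5, against 8.18, 8.03, 7.94, 7.93 and 7.84 FPKM in DMSO libraries 1 to 5. The libraries of each group differed little among themselves, and the groups were far apart (log2 fold change 1.13 ± 0.022 SE, adjusted p = 5.22e-14). CALCOCO2 (chromosome 17, 48830988 to 48866522, plus strand), also called NDP52 and a receptor for bacteria and mitochondria, had 7.31, 7.27, 7.70, 8.07 and 7.51 FPKM in HPC libraries 1 to 5, against 5.05, 4.98, 4.63, 4.61 and 4.59 FPKM in DMSO libraries 1 to 5. The HPC values all lay above the DMSO values (log2 fold change 0.66 ± 0.039 SE, adjusted p = 2.06e-09).

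For NBR1, OPTN and BNIP3L the differences were small. NBR1, an aggregate receptor, averaged 11.7 ± 0.413 FPKM in HPC and 10.5 ± 0.165 FPKM in DMSO (SD, n = 5 each; log2 fold change 0.16 ± 0.028 SE, adjusted p = 0.000145), and its sign turned to -0.010 with the non-mitochondrial sum. OPTN, optineurin, averaged 7.57 ± 0.361 FPKM in HPC and 6.97 ± 0.184 FPKM in DMSO (SD, n = 5 each; log2 fold change 0.12 ± 0.035 SE, adjusted p = 0.00669), and its sign turned to -0.049 with that sum. BNIP3L, the mitochondrial receptor NIX, averaged 26.2 ± 0.743 FPKM in HPC and 24.2 ± 1.56 FPKM in DMSO (SD, n = 5 each) with overlapping groups (log2 fold change 0.12 ± 0.040 SE, adjusted p = 0.014), and its sign turned to -0.049 with that sum, while with quantile normalization the call was lost (adjusted p = 0.382). A stretch of 60 bases shortly before the start of TAX1BP1 (chr7:27740095-27740154, plus strand) is shown with its TGACGCAA match in capitals, as the receptor that rose most among the members.
TAX1BP1: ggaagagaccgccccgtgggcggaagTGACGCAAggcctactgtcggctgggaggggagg

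Of 14 further receptor and cargo genes listed, FUNDC1 was not analysed here and BNIP3 did not pass the filter, and of the 12 tested 6 rose and 4 fell, or 50% and 33.3%, beside 42.9% and 44.8% of all tested genes. SQSTM1, the aggregate receptor p62, had 111, 108, 105, 106 and 106 FPKM in HPC libraries 1 to 5, against 26.2, 27.1, 23.3, 24.3 and 24.1 FPKM in DMSO libraries 1 to 5. The lowest HPC library was far above the highest DMSO library (log2 fold change 2.10 ± 0.038 SE, adjusted p = 2.17e-14), 4.28-fold, and MRNIP on the opposite strand shares 20.7% of its exonic bases. CCPG1, a receptor for the endoplasmic reticulum, had 8.85, 9.01, 9.40, 9.85 and 9.37 FPKM in HPC libraries 1 to 5, against 2.55, 2.52, 2.80, 2.58 and 2.39 FPKM in DMSO libraries 1 to 5. The groups did not overlap (log2 fold change 1.82 ± 0.042 SE, adjusted p = 2.09e-13), though the readthrough transcript DNAAF4-CCPG1 shares 38.7% of its exonic bases. The endoplasmic reticulum receptors did not all move this way: RETREG1, also called FAM134B, had a log2 fold change of -0.53 (adjusted p = 1.08e-05) and RTN3 one of -0.37 (adjusted p = 1.04e-08), while SEC62 had 0.30 (adjusted p = 4.95e-07) and TEX264 had -0.066 (adjusted p = 0.238). RETREG1, RTN3, SEC62 and TEX264 were named after their values were seen. BNIP3 had 0.0674, 0.0397, 0.0607, 0.0822 and 0.0863 FPKM in HPC libraries 1 to 5, against 0.0851, 0.101, 0.0691, 0.0559 and 0.133 FPKM in DMSO libraries 1 to 5. These levels are near 0 in both groups, and no fold change is given.

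None of the 3 members of transport and fusion passed the test upward, beside 42.9% of all tested genes. TECPR1 (chromosome 7, 98214624 to 98252251, minus strand), a tether between autophagosomes and lysosomes, had 0.518, 0.547, 0.556, 0.502 and 0.531 FPKM in HPC libraries 1 to 5, against 1.09, 1.19, 1.10, 1.28 and 1.05 FPKM in DMSO libraries 1 to 5. Each HPC library was below each DMSO library (log2 fold change -0.98 ± 0.058 SE), with between 683 and 1893 recovered reads per library. TECPR1 passed the filter on low values through the DMSO libraries alone, where it was higher, so its difference is given without a test, and its place as 1 of the 2 members at least 1.5-fold lower rests on that filter. With 1 FPKM added in place of 0.1 its log2 fold change was -0.48, under 1.5-fold. FYCO1, which links autophagosomes to kinesin, averaged 2.10 ± 0.0771 FPKM in HPC and 2.31 ± 0.0749 FPKM in DMSO (SD, n = 5 each) with overlapping groups (log2 fold change -0.13 ± 0.037 SE, adjusted p = 0.00628), and that call was lost with quantile normalization (adjusted p = 0.0996).

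STX17, the SNARE protein of the closed autophagosome, was the member whose HPC libraries differed most from each other. It had 3.25, 1.14, 3.07, 3.42 and 1.25 FPKM in HPC libraries 1 to 5, against 2.48, 2.64, 2.55, 2.44 and 2.63 FPKM in DMSO libraries 1 to 5. HPC libraries 2 and 5 were below all DMSO libraries and HPC libraries 1, 3 and 4 were above all of them, so the mean fold change describes neither (log2 fold change -0.21 ± 0.329 SE, adjusted p = 0.56). Recovered reads were 4054, 1412, 4124, 4069 and 1489 in HPC libraries 1 to 5 and 3328, 3494, 3784, 3159 and 3402 in DMSO libraries 1 to 5, so the lowest value rests on 1412 reads. The SD of log2(FPKM + 0.1) over the HPC libraries was 0.75 for STX17 and at most 0.14 for the other 39 members. Over all 9150 tested genes, 39, STX17 among them, had an SD at least as large. STX17 was described after its values were seen.

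**Figure D5:**
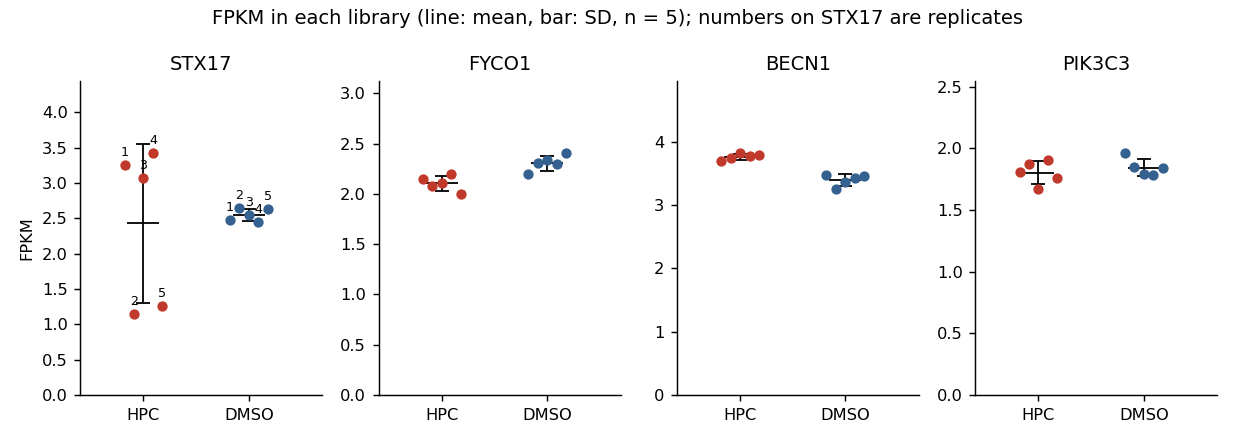
FPKM in each library is plotted for STX17, FYCO1, BECN1 and PIK3C3, HPC left of DMSO, with the mean as a line and the SD of 5 libraries as a bar. Numbers on the STX17 points are the replicate numbers of the libraries. STX17 in HPC libraries 2 and 5 lies at 1.14 and 1.25 FPKM, and in HPC libraries 1, 3 and 4 between 3.07 and 3.42 FPKM.

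The SNARE proteins that pair in fusion also moved in both directions. VAMP8, the lysosomal partner of STX17, had 2.67, 2.27, 2.98, 2.51 and 2.81 FPKM in HPC libraries 1 to 5, against 6.96, 7.15, 8.01, 6.89 and 7.51 FPKM in DMSO libraries 1 to 5. All HPC libraries were below all DMSO libraries (log2 fold change -1.43 ± 0.066 SE, adjusted p = 1.87e-10). YKT6, the SNARE protein that can take the place of STX17, had 22.1, 23.7, 23.3, 19.6 and 21.2 FPKM in HPC libraries 1 to 5, against 13.1, 12.2, 12.9, 12.8 and 13.4 FPKM in DMSO libraries 1 to 5. It was higher in every HPC library (log2 fold change 0.77 ± 0.048 SE, adjusted p = 3.93e-09). SNAP29, which bridges both pairs, had a log2 fold change of -0.31 (adjusted p = 2.41e-06), and was named after its values were seen. Of 14 further fusion genes listed 13 were tested, of which 3 rose, 6 fell and 4 did not pass, or 23.1% higher and 46.2% lower beside 42.9% and 44.8% of all tested genes. Of 11 further core and ATG8 genes listed 7 were tested and had higher values in HPC, or 100%, beside 42.9% of all tested genes. The filter on low values partly set that count. MAP1LC3B2 passed the filter through HPC alone, and ATG16L2, left out by it, averaged 0.0837 ± 0.00685 FPKM in HPC and 0.153 ± 0.0134 FPKM in DMSO (SD, n = 5 each), with no overlap. ULK3, also left out, was higher in HPC, with 0.626 ± 0.0333 FPKM against 0.460 ± 0.0231 FPKM in DMSO (SD, n = 5 each) and no overlap. Taking the 3 lists together, 38 of 39 genes were in the table, 32 were tested, 16 rose and 10 fell. That is 50% and 31.25%, beside 42.9% and 44.8% of all tested genes, and the 16 that rose include MAP1LC3B2. After rescaling to the non-mitochondrial sum 14 were higher and 16 lower, beside 2957 and 5015 of all 9150 tested genes.

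For background, autophagy genes are known to be raised through the stress factors ATF4 and CHOP, shown in mouse fibroblasts, and through the lysosomal factor TFEB, shown in HeLa cells. Of 12 genes listed for ATF4 or CHOP, 11 of them members, 9 rose and 3 fell (75.0% and 25.0%, beside 42.9% and 44.8% of all tested genes), with a median log2 fold change of 0.36 beside -0.014 over all tested genes. MAP1LC3B (2.46) and SQSTM1 (2.10) were past 1.5-fold upward, 16.7% of the list beside 16.9% of all tested genes, and the 3 that fell were ATG10, GABARAP and GABARAPL2. Of 7 genes listed for TFEB 6 were tested and 5 rose, WIPI1, MAP1LC3B, SQSTM1, UVRAG and VPS18. That is 83.3% of those tested, beside 42.9% of all tested genes, with a median of 1.29 beside -0.014. Both lists were chosen with earlier results of these data known. VPS11 did not pass, and ATG9B averaged 0.0185 FPKM in HPC and 0.0308 FPKM in DMSO. MAP1LC3B and SQSTM1 stand in both lists. Both counts depended on the scaling. With the non-mitochondrial sum 7 genes of the ATF4 or CHOP list and 4 of the TFEB list were higher, beside 2957 of the 9150 tested genes. The 27 members outside both lists split into 14 that rose, 9 that fell and 4 short of the threshold, with a median log2 fold change of 0.072. That is 51.9% higher and 33.3% lower, beside 42.9% and 44.8% of all tested genes. Activity of these factors was not measured here.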

How the data were processed

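Poly(A) RNA from 5 HPC and 5 DMSO libraries was sequenced as paired reads, per the labels' protocols. The authors deposited 1 table, in FPKM (fragments per kilobase of gene and per library size), with 16734 genes. The tools fastp 0.23.2, STAR 2.7.7a and edgeR (no version) and the build GRCh38.p13 appear in the submitters' processing notes, which assign no role or order. Counter, strand setting, annotation and filters: not given in the sources used here.

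For 15208 genes above 0 in at least 3 libraries, 100% had values that came out as whole reads to within 0.0001 of a read, and this gave the depths. For the other 1526 genes that step is not fixed.

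Values were tested as log2(FPKM + 0.1), which understates the fold change of low genes, for the 9150 genes that reached 1 FPKM in 5 or more libraries. The two-sided test was that of limma 3.58.1 in R 4.3.3, with a trended and robust prior, and p-values were adjusted by Benjamini-Hochberg with a threshold of 0.05. No set test was run. The procedure was tested on simulated data. The p-values reflect only how these libraries vary, which carry replicate numbers but no culture day. Within-group pairs differed by 11.8 to 24.9 times counting noise (chi-square per degree of freedom), so no library was taken for a copy.

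The 40 members, the lists and the alternatives were chosen with earlier results of these data known. Genes named with values in every library were those past the test, past 1.5-fold and without overlap, 11 members taken whatever their values, SQSTM1 and BNIP3, and the 8 other pathway genes with the largest change among those past the test. Coordinates and shared exonic bases come from GENCODE 29 on GRCh38, and promoters from RefSeq on GRCh38.p14. Windows for RB1CC1, BNIP3L, UVRAG, STX17 and ATG4D were not used here. Alternatives changed the pseudocount, filter, scaling, variance model, block, threshold and libraries, and included limma's voom on recovered reads with and without TMM factors. Python 3.11.15 with pandas 2.3.3, NumPy 2.4.6 and matplotlib 3.10.9 was used.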

Additional observations from a re-analysis of the deposited data

Results flagged for a closer look

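RB1CC1 in DMSO replicate 4 stood apart from the other DMSO libraries. It had 8.92 FPKM there, while the other DMSO libraries had between 8.46 and 8.52 FPKM, and the gap to the nearest was 0.876 of the range of the group. All HPC libraries were above this value. It was the only such value among 98 groups of 5 libraries checked, and chance gives about 1 in 20 groups, or 4.9 here.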

How the results depend on the processing

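Depth did not limit the members, since the lowest value of any member rested on 655 recovered reads (ATG10), and intervals from reads would cover counting error only. Scaling did, because FPKM is relative to library size. With the non-mitochondrial sum the median of the members turned to -0.015, 4 members instead of 2 were at least 1.5-fold lower, and 16 other pathway genes were lower. Over all tested genes 2957 were then higher and 5015 lower, in place of 3922 and 4099, and signs turned for BECN1 (-0.020), ATG14 (-0.092), WIPI2 (-0.16), NBR1 (-0.010), OPTN (-0.049) and BNIP3L (-0.049). WIPI2 also turned with the TPM rescaling (-0.020) and with quantile normalization (-0.0010), and ranged from -0.0020, without HPC replicate 4, to 0.021 when each library was left out. PIK3C3 turned with quantile normalization (0.033). STX17 ranged from -0.36 to 0.0099 when each library was left out, and its sign turned without HPC replicate 2. The cause was not tested.

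A filter at 5 FPKM left 16 members, of which 12 were higher, 3 lower and 1 at least 1.5-fold lower, with a median of 0.45. It left 9 other pathway genes higher and 6 lower, 4 higher of the ATF4 or CHOP list and 3 of the TFEB list, and 1969 higher and 1836 lower genes in all, since fewer genes were tested. A pseudocount of 1 left 1 member at least 1.5-fold lower.

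Without each library in turn, between 23 and 24 members were higher and between 11 and 12 lower, and the counts at 1.5-fold were 8 to 9 and 2. With voom on the recovered reads 23 members were higher and 12 lower, and 3926 genes were higher and 4101 lower. With TMM factors added, 24 members were higher and 12 lower, and no member changed its direction or call. The ratio of WIPI1 to WIPI2 in HPC over that in DMSO was between 8.11 and 8.69 without each library.

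The deviations of same-numbered HPC and DMSO libraries correlated with r of -0.06, 0.07, 0.20, 0.02 and 0.14, and those of other pairs with r from -0.20 to 0.15. The labels give no culture date or batch, so these values cannot show whether libraries of the same number shared a culture. A fit with the replicate block had 23 members higher and 12 lower, with ATG14 at an adjusted p of 0.0913. Not every library correlated best with its own number.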
